A study of Mus musculus with 12 samples.

Results

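Control-only regions are stretches of the mouse hippocampal genome where a peak of 5-hydroxymethylcytosine (5hmC) was listed in every library from undisturbed mice and in no library from mice that had just been restrained. They were chosen by pooling the peaks of 6 deposited lists on chromosomes 1 to 19, merging peaks that shared at least 1 bp, and keeping regions with a peak in 3 of 3 control and 0 of 3 stress lists. This left 276 of 74401 regions (0.371%). The choice used the presence of peaks in all 6 lists, so the number of regions and the absence of stress peaks inside them describe the rule and were not tested.

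The mice were males on a C57BL/6J background, of which the labels give the age both as postnatal day 28 and as 7 weeks. The stress group was 6 mice held for 30 min in a conical tube and then left alone in a clean cage for 1 h. The control group was 5 mice killed at the same time of day straight from the home cage. DNA of the whole hippocampus, taken with a micropunch, was pooled from a pair of mice for each enrichment, except for 1 enrichment made from a single mouse, so most libraries are pools of mice. 5hmC was tagged with an azide-bearing glucose, biotinylated, captured and sequenced, which gave 3 libraries a group. With 6 stress and 5 control mice, the single-mouse library is a control if each mouse was used once. RNA of the same mice was deposited as 1 table for each group, with levels in FPKM (fragments counted per length of transcript and per depth of the library).

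5hmC is made from 5-methylcytosine by the TET dioxygenases. It is both a step on the way to removal of DNA methylation and a lasting mark of its own, and the adult brain holds more of it than most tissues, mainly in the bodies of genes that neurons use and at enhancers. Acute restraint raises adrenal glucocorticoids, which reach receptors that are abundant in the hippocampus.

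The control-only regions that reached furthest into promoters were at Rps24, which encodes a protein of the small ribosomal subunit, at Tmem136, at Adcy6, which encodes an adenylyl cyclase, and at Dcps, which encodes the scavenger enzyme that removes the cap left after mRNA decay. The Rps24 region (chr14:25309276-25309918, mm9) ran from 627 bases before the annotated start to 15 bases after it. The Dcps region (chr9:34983675-34984584, mm9) ran from 1012 to 103 bases before the start. The Tmem136 region ran from 972 to 30 bases before its start and the Adcy6 region from 152 bases before to 2342 bases after its start. The 250 bases before the start of Rps24 and of Dcps are shown to let the CpG content under these regions be seen, since 5hmC arises mainly at CpG. They come from RefSeq on build GRCm38.p6, at chr14:24490428-24490677 (plus strand, the more upstream of the starts listed for Rps24) and chr9:35175988-35176237 (minus strand), are written 5′ to 3′, and have each CpG in capitals.
Rps24: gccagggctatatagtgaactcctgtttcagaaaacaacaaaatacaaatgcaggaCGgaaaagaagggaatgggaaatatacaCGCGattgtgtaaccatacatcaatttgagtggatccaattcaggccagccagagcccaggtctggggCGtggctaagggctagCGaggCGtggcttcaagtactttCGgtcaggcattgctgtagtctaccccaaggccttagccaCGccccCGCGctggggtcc
Dcps: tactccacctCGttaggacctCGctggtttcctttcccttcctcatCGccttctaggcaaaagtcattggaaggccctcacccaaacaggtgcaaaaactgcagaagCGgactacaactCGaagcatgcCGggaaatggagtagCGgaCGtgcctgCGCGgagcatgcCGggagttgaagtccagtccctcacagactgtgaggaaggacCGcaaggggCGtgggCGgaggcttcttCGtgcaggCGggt
The Rps24 stretch holds 10 CpG, and the stretch before the other start listed for the gene holds 16. The Dcps stretch holds 16 CpG, of which 7 lie in the 148 bases that the region covers. The median over all 31396 promoter stretches of the same length in the table was 6 CpG, counted as the letters CG, which read the same on both strands. Over the 22 stretches of genes with a control-only region near the start it was 14.5. These stretches were taken whether or not the region reached into them. Regions that began 365 to 950 bases after a start, or ended 351 to 856 bases before one, did not. Tmem136 and Adcy6 had no stretch. Promoters near other 5hmC regions were not counted, so the value is not particular to control-only regions.

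Each region was a single peak in each control list, and the peaks mostly lay on top of each other. Their median length was 1092 bp (643 to 3172 bp). Every one of the 276 held exactly 1 peak of each control list, and in 272 some bases were under all 3 control peaks, with a median of 754 bp in common over the 276. In 4 regions the peaks overlapped in a chain with no base under all 3 (those at Dnajb6, Optn and Prnp, and 1 between genes). The median was 1022 bp over all 74401 regions. Regions with a peak in all 6 lists were longer, at a median of 1600 bp. The 847 stress-only regions, the mirror set with a peak in 3 of 3 stress and 0 of 3 control lists, stood at 1335 bp. A merged region spans all its peaks, so length tends to rise with the number of lists. Of all regions, 42365 had a peak in 1 list. Stress peaks were also longer, at medians of 976, 1062 and 1046 bp against 896, 965 and 935 bp in control. The sizes of both sets changed with how the lists were trimmed. At equal covered length there were 367 control-only and 389 stress-only regions. At equal numbers of peaks there were 308 and 531, and with the higher-scoring 50% of each list 146 and 440.

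The peak scores, which are the authors' own and rank peaks within a list, were middling. The score of the 276 peaks stood at a median percentile of 54.9 in control 1, 56.4 in control 2 and 57.0 in control 3. In 199 of 276 regions at least 1 of the 3 scores was under 60, where the lists begin at 50. Peaks in regions listed in all 6 libraries stood at medians of 81.9, 89.4 and 83.2, so the control-only peaks ranked below the peaks that every library shared. Just outside the rule, the 562 regions with 3 control lists and 1 stress list had medians of 63.7, 66.2 and 59.9, and the 2404 regions with 2 control lists and no stress list had medians of 46.2, 45.8 and 43.9. These values bear on the choice of the regions and were given no test.

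**Figure D1:**
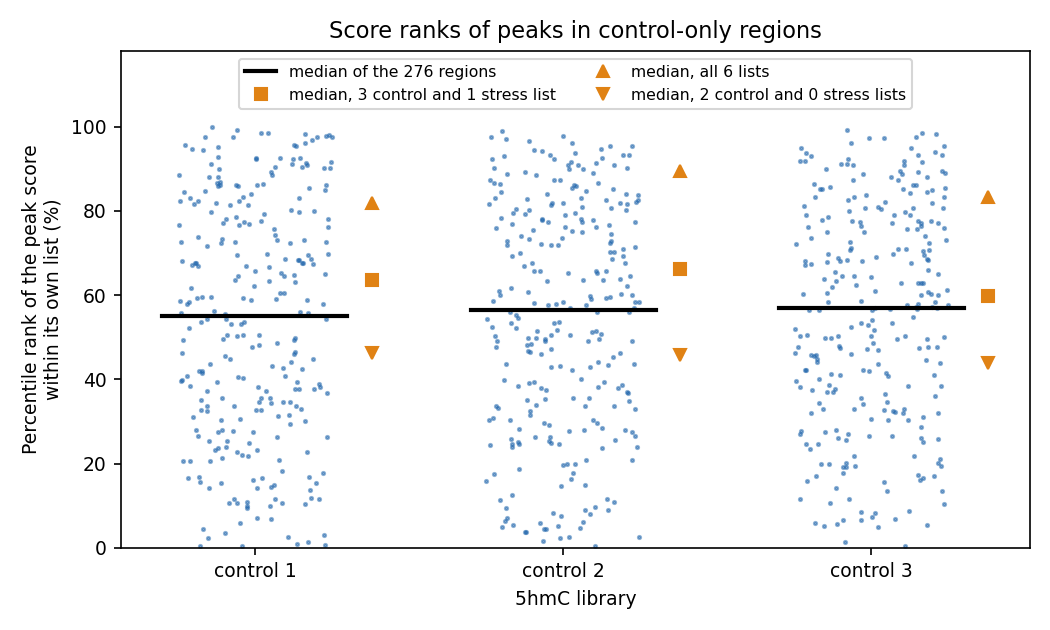
Each point is the peak of 1 control-only region in 1 control library, and the vertical axis is the percentile rank of its score within that library's own list (%). Black bars are medians over the 276 regions (54.9, 56.4 and 57.0), and orange marks are medians for regions with 1 stress list more, with all 6 lists, or with 1 control list fewer.

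The highest mean ranks belonged to a mixed group of places. The first was on exon 4 of Col4a3bp, which encodes the ceramide transfer protein CERT (chr13:97367887-97369118, mm9), with scores of 86.1, 124 and 120 in control 1, 2 and 3 and a mean percentile of 94.6. The nearest stress peak was 20600 bp away. A further 2 regions above the 90th percentile lay between genes on chromosomes 5 and 14. On exon 4, the last, of Zfp804a, a zinc finger gene linked to schizophrenia in human, a region of 1856 bp that was exon throughout scored 74.4, 106 and 145. It stood alone, since the nearest peak of any stress list was 821995 bp away. The region that began 559 bases after the start of Ndufa4, a subunit of the respiratory chain, scored 124, 110 and 69.3. Regions in the introns of Tmtc2, which encodes a mannosyltransferase, and of Alcam, an adhesion molecule of growing axons, 1 region 432 bases upstream of the lipid transporter gene Abcb4, and 2 more regions between genes made up the rest of the first 10.

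Presence in a library that had no part in choosing the regions was measured by building regions from 2 control and 2 stress lists and reading the left-out list of each group. There were 9 such combinations. Of regions with a peak in both control lists used and in neither stress list used, a mean of 30.2% (25.3% to 39.5%) had a peak in the left-out control list and a mean of 29.9% (16.6% to 41.7%) had a peak in the left-out stress list. The control share was the higher in 5 of 9 combinations. Over all regions, whatever their pattern, the means were 22.0% and 28.0%. Lists differ in length, and the shares are given by list for that reason. Among the longer lists, stress 3, with 31636 peaks, contained 39.0% of these regions on average, control 2, with 27897 peaks, 37.1%, and stress 2, with 27784 peaks, 33.1%. Among the shorter lists, controls 1 and 3, with 17176 and 16303 peaks, contained 26.3% and 27.1%, and stress 1, with 15177 peaks, 17.5%. Control 2 was above stress 2, the list nearest to it in length, and below the longer stress 3. Controls 1 and 3 were above the shorter stress 1. Over all regions control 2, stress 2 and stress 3 contained 30.6%, 31.4% and 35.1%. Control 1, control 3 and stress 1 contained 17.6%, 17.8% and 17.4% of all regions.

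When each list was held to its 15177 highest-scoring peaks, the number in the shortest list, the control pattern was seen again more often in the left-out control list. The means were 32.3% (28.4% to 36.0%) in control and 25.7% (21.2% to 30.4%) in stress, with the control share higher in 9 of 9 combinations, against 21.8% and 24.2% over all regions. The combinations share libraries and are not replicates, so they carry no test. The mirror pattern, a peak in both stress lists used and in neither control list used, was seen again in 44.1% of regions in the left-out stress list and in 27.0% in the left-out control list, and in 42.4% and 27.3% at equal numbers of peaks.

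The members were unequally sensitive to how the lists were trimmed and merged. Of 5 other ways to choose them (equal numbers of peaks, the higher-scoring 50%, equal covered length, at least 50% of the region covered, gaps of up to 200 bp bridged), 51 of the 276 were chosen by all 5 and 1, at Prnp, by none. Of the 10 regions in genes of cAMP signalling, of the stress hormone response and of chromatin marks, those at Adcy6, Pde10a, Ncoa1 and Kdm2b and the second of Pde4d were chosen by all 5, the first of Pde4d and that at Klf9 by 4, and those at Adcy5, Dnmt3b and Kat6b by 2.

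**Figure D2:**
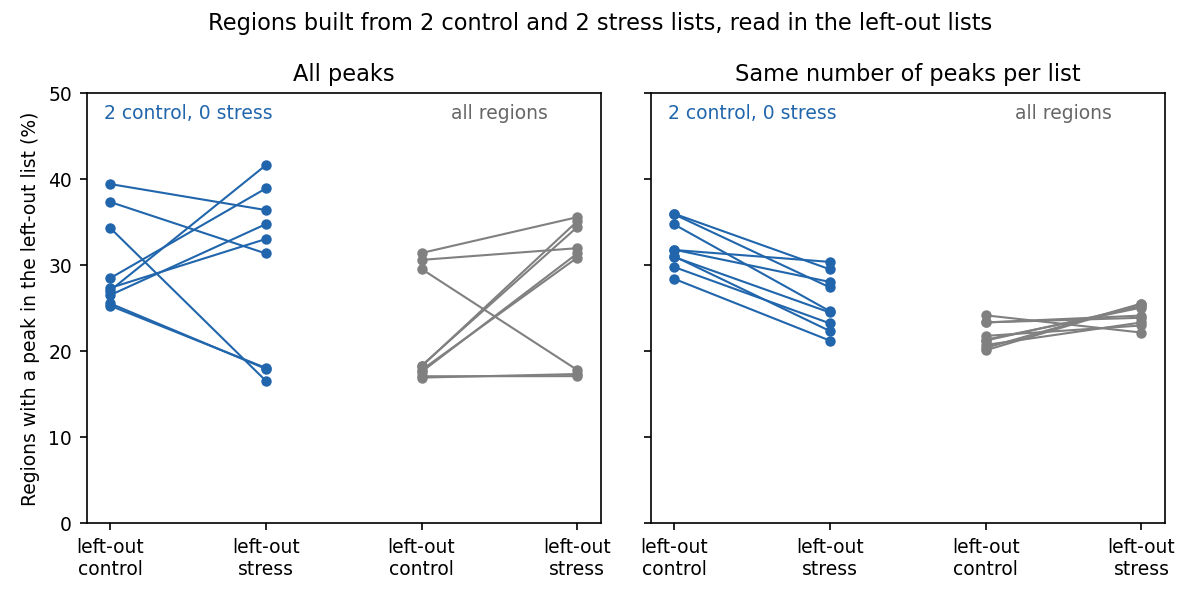
The vertical axis is the share of regions (%) with a peak in a list not used to build them, and each line joins the left-out control and the left-out stress list of 1 of 9 combinations. Blue lines are regions with a peak in 2 control and 0 stress lists used, grey lines all regions. With all peaks the blue lines run both ways (control higher in 5 of 9), and with 15177 peaks a list all 9 run downward from control to stress.

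By any overlap, control-only regions were divided among promoters, exons, introns and intergenic sequence much as all regions were. By the centre of the region their exon share was lower. By the order promoter (within 1 kb of a start), exon, intron, intergenic, 20 of 276 were at promoters (7.25%), 39 on exons (14.1%, exact 95% interval 10.2% to 18.8%), 107 in introns (38.8%) and 110 between genes (39.9%). Intervals cover counting error over regions only. All 74401 regions had 4.88% at promoters, 18.2% on exons, 37.0% in introns and 39.95% between genes, and their exon share lies inside that interval. By the centre of the region, which does not favour long regions, 4.35% of control-only regions, 7.96% of all regions and 17.5% of stress-only regions were exonic. No interval was computed for the shares by centre.

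The median distance of the 276 regions to the nearest start was 30538 bp, against 20869 bp for stress-only regions and 20148 bp for regions in all 6 lists. Within 10 kb of a start were 71 of 276 (25.7%), against 33.4% of stress-only regions and 39.2% of regions in all 6 lists. Neither measure was taken over all regions. Of the 157 regions inside transcripts, 58 (36.9%) were in the first 25% of the transcript and 38 (24.2%) in the last 25%, where the first 25% held 24.3% of stress-only regions inside transcripts and 38.2% of those in all 6 lists. Of the 113 that touched no exon, 48 were in the first intron (42.5%, against 38.6% of stress-only regions and 49.5% of regions in all 6 lists).

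The 157 regions fell in 156 genes, called host genes from here on, which were longer and more often expressed than genes at large. The median body of the 151 hosts of at least 10 kb was 134 kb, against 31.9 kb over all 13432 genes of that size. The share of genes that were hosts was 0.360% at 10 to 30 kb, 0.914% at 30 to 100 kb, 3.13% at 100 to 300 kb and 6.01% above 300 kb. By control RNA, 82 of 151 hosts (54.3%) were at 1 to 10 FPKM and 40 (26.5%) at 10 or more, where the shares over all 13432 genes were 42.3% and 16.6%. Genes with a region in all 6 lists stood at 56.1% and 26.8%, and the share of genes with a stress-only region also went up with length, from 1.94% at 10 to 30 kb to 14.8% above 300 kb. A long gene offers more sequence to a peak, and length and level were not separated here.

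Around the regions both groups listed peaks about equally often. The nearest peak of any stress list was at a median of 10263 bp, and the nearest other control peak at 10155 bp. A stress peak was within 1 kb of 17 regions (6.16%) and within 5 kb of 74 (26.8%), and another control peak was within those distances of 18 (6.52%) and 68 (24.6%). Around stress-only regions a control peak was within 1 kb of 5.43% and within 5 kb of 23.3%. By library, 20, 44 and 48 of the 276 regions had a peak of stress 1, 2 and 3 within 5 kb, in the order of the lengths of those lists.

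**Figure D3:**
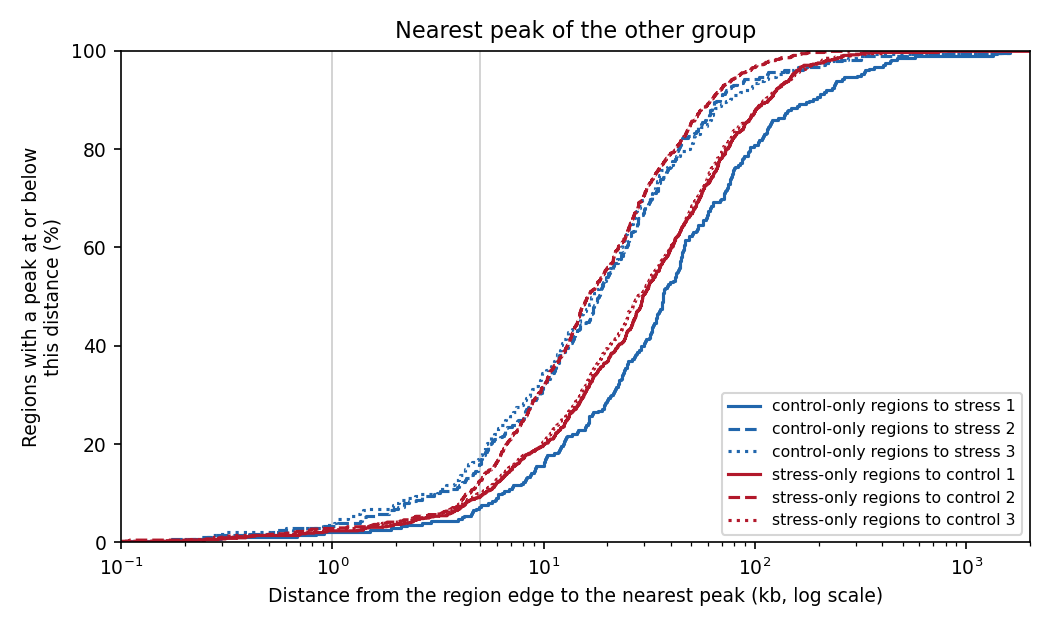
The horizontal axis is the distance from the region edge to the nearest peak of the other group (kb, log scale) and the vertical axis the share of regions at or below it (%). Blue lines are the 276 control-only regions to each stress list and red lines the 847 stress-only regions to each control list, and the grey lines mark 1 and 5 kb. The 3 longest lists (stress 3, stress 2 and control 2) give the shortest distances, and stress 1 is furthest to the right at a median of 36683 bp.

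The members are described next by what their host genes do, with their scores in control 1, 2 and 3 in that order and the number of hosts among list members of at least 10 kb. For scale, 1.12% of all such genes were hosts and 3.66% held a stress-only region. The lists differ from all genes in length, and the host share rises with length, from 0.360% at 10 to 30 kb to 6.01% above 300 kb. Median bodies were 93.1 kb for cAMP genes, 78.7 kb for stress hormone genes and 16.8 kb for immediate early genes, against 31.9 kb over all. Counts by list were not adjusted for this and show neither excess nor absence.

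Enzymes of the cyclic AMP second messenger held 5 regions in 4 of 59 genes, and 3 of the 59 held a stress-only region. Pde4d and Pde10a encode phosphodiesterases that break cAMP down, and Adcy5 and Adcy6 encode cyclases that make it. Pde4d, a gene of 1302 kb, held 2 regions, both in intron 3 and 416 kb apart. The first (chr13:110029574-110030788, mm9) scored 90.6, 66.1 and 54.4, and the second (chr13:110447083-110448032, mm9) scored 64.6, 72.4 and 64.4. Their nearest stress peaks were 6555 and 5794 bp away. The Pde10a region, in intron 1, scored 61.9, 80.8 and 64.2, and the nearest stress peak was 11186 bp away.

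At Adcy6 the control-only region and a stress peak were side by side. The region (chr15:98435722-98438216, mm9) covered the first exon and part of the first intron, and scored 61.2, 64.1 and 83.1. A peak that began 230, 231 and 310 bp beyond its edge was listed in stress 1, 2 and 3, and control 2 listed a peak there as well. Peak coverage of the rest of the gene, relative to each library's average over genes, was 0, 4.77 and 0 in the control and 10.5, 4.94 and 4.30 in the stress libraries. All 3 stress values were above 2 of the control values, and control 2 was between them (exact permutation p = 0.2). The Adcy5 region, in intron 1, had low scores of 53.7, 51.2 and 57.8, and stress peaks lay 2112 and 1946 bp away in stress 1 and 3. The 4 hosts were at 2.92 FPKM (Adcy6), 5.26 (Pde4d), 6.31 (Pde10a) and 7.46 (Adcy5) in the control table, and all 4 differed from the stress table by less than 0.32 on the log2 scale used for RNA.

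**Figure D4:**
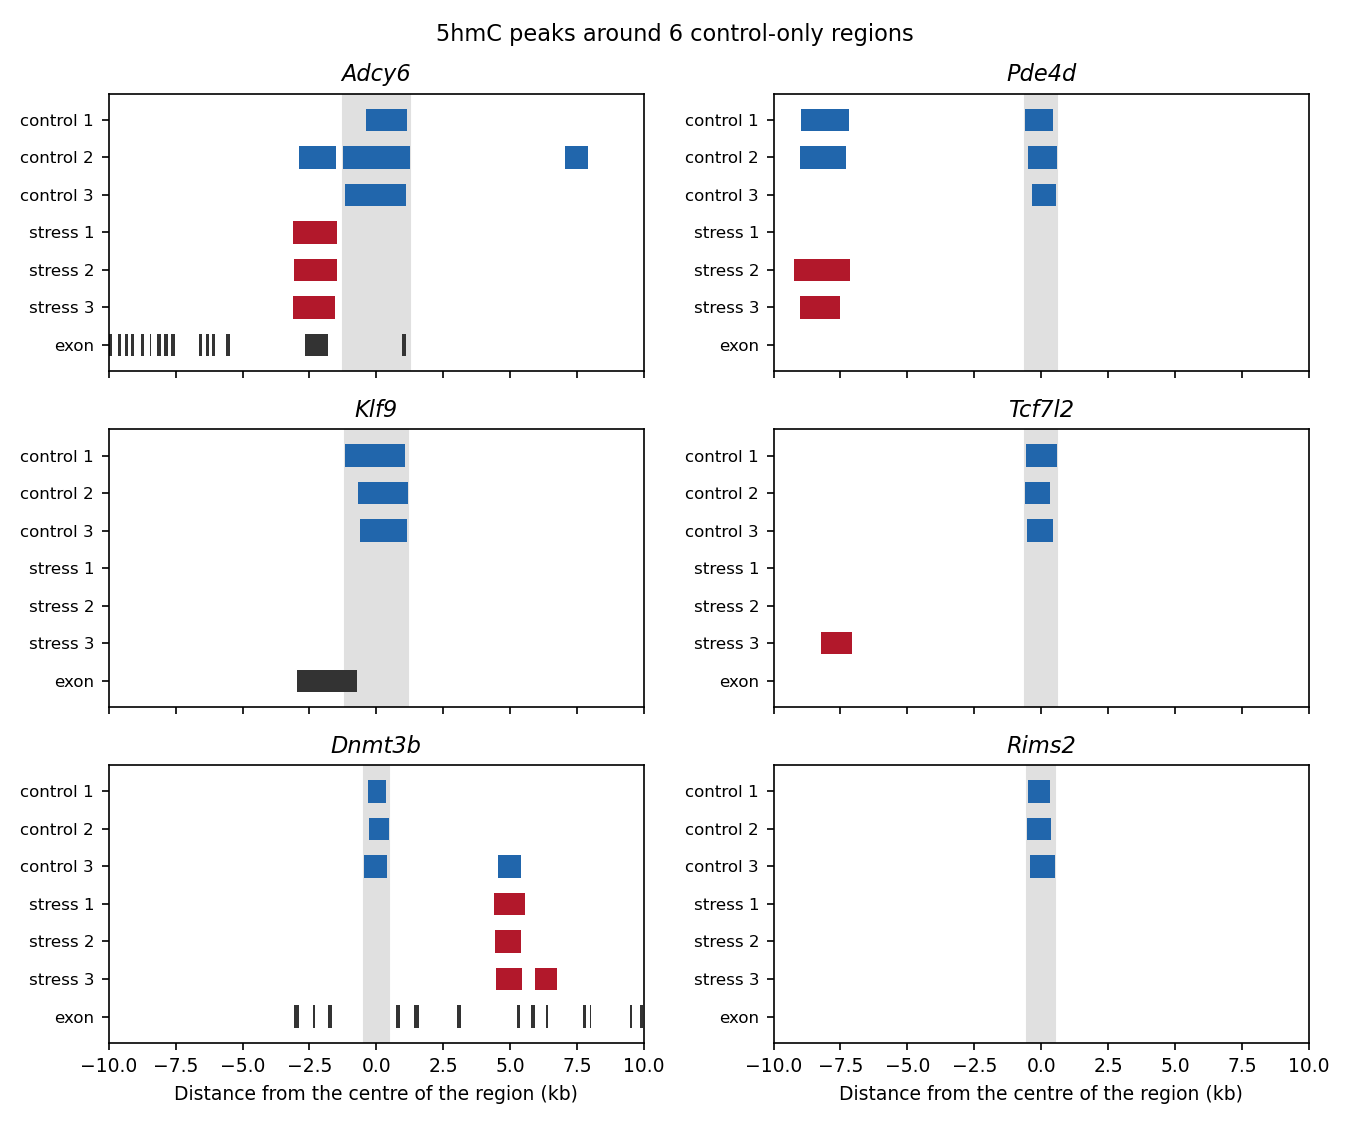
Bars are peaks of each of the 6 libraries within 10 kb of the centre of a control-only region (horizontal axis, kb), with exons of the host gene in black and the region shaded. At Klf9 and Rims2 no stress list has a peak in the window, at Tcf7l2 and Pde4d peaks of 1 and 2 stress lists lie towards its left end, and at Adcy6 and Dnmt3b all 3 stress lists have a peak outside the shaded region.

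Among genes of the stress hormone response, 2 of 18 were hosts and 0 held a stress-only region. Klf9 encodes a Krüppel-like transcription factor that glucocorticoids induce, and Ncoa1 encodes the steroid receptor coactivator SRC-1. The Klf9 region (chr19:23240951-23243320, mm9) began on 451 bases of the last exon and ran past the end of the gene. It scored 73.7, 67.4 and 57.4 and was 28070 bp from the nearest stress peak. The Ncoa1 region, in intron 1, scored 81.9, 89.98 and 75.8, with stress peaks 16231, 5834 and 8612 bp away. Ncoa1 was at 15.6 FPKM in control and 18.4 in stress.

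Writers and erasers of chromatin marks held 3 regions. Dnmt3b, which encodes an enzyme that places new DNA methylation, was 1 host of 19 genes of DNA methylation and 5hmC. Its region, in intron 4 (chr2:153489764-153490715, mm9), scored 56.5, 55.6 and 53.7, at percentiles of 33.7, 24.7 and 20.2, and a peak 3933 to 3994 bp away was listed in all 3 stress libraries and in control 3. Dnmt3b RNA was low, at 0.175 FPKM in control and 0.0700 in stress. Kdm2b, a CpG-binding histone demethylase, held a region in intron 12 with scores of 64.3, 84.3 and 73.6, and Kat6b, a histone acetyltransferase, held one in intron 2 with scores of 71.4, 54.4 and 64.9. They were 2 of 79 histone-modifying genes.

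Membrane traffic through the Golgi and small ARF and RAB GTPases accounted for 6 of 151 genes. Agap1 and Asap1 encode proteins that switch ARF off, Iqsec1 a factor that switches ARF on, Cog5 and Dym Golgi proteins, and Snx9 a sorting nexin of endocytosis. The Asap1 region (scores 81.2, 91.8 and 60.9) touched exon 10 and the Iqsec1 region (70.7, 58.8 and 61.8) exon 12. The Cog5 region, on exon 15, was among the weaker members at 55.0, 53.8 and 54.9. Snx9 and Dym had a stress peak only 102 and 271 bp from the region edge. Agap1 and Dym also held 1 stress-only region each and Asap1 held 2. Over all lists and genes, 14 of the 156 hosts (8.97%) also held a stress-only region.

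The synaptic lists had from 0 to 2 hosts each. The active zone scaffolds Rims2 and Erc2 were the hosts among 71 genes of presynaptic release. The Rims2 region, in intron 22, scored 67.1, 69.4 and 62.9, with stress peaks 19865, 181010 and 19840 bp away. The Erc2 region, in intron 15, scored 68.1, 76.9 and 61.8. Grid1, a delta glutamate receptor, was 1 of 33 glutamate receptor genes, Kcnj6, an inwardly rectifying potassium channel, 1 of 89, and Cacna2d3, an auxiliary calcium channel subunit, 1 of 57. Cadm2, an adhesion molecule, was 1 of 57 genes of synaptic adhesion and scaffolding. None of 22 GABA and glycine receptor genes was a host.

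Among cell surface genes, 2 cadherins were hosts. These were Cdh23 and Fat3, of 78, where 24 of the 78 held a stress-only region. This counts genes, and a region inside genes that overlap counts for each of them. Ephb1, an ephrin receptor, and Sema4d, a semaphorin, were 2 of 62 axon guidance genes, with scores of 67.1, 71.6 and 80.8, and of 57.7, 54.4 and 52.9. Adamts20, Col11a1 and Itgb6, of the extracellular matrix and its receptors, were 3 of 138. The Col11a1 region touched exon 4 and was 1487189 bp from the nearest stress peak. Hs2st1, a heparan sulphate sulphotransferase, was 1 of 51.

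The remaining lists held few hosts. Tcf7l2, a transcription factor of Wnt signalling, was 1 of 49, with scores of 57.8, 64.8 and 61.9. Prkd1 (1 of 83 kinases), Celf4 (1 of 42 genes of neuronal RNA binding), Slc35f1 and Slc9a9 (2 of 311 solute carriers) and Zfp292, Zfp619 and Zfp804a (3 of 311 Zfp genes) completed them. No immediate early gene of 9 and no ubiquitin ligase of 212 was a host. These lists and the regions were chosen with results of these libraries known, so the counts are descriptions. Outside the lists, Focad held 2 regions, in introns 1 and 10, 85482 bp apart, with scores of 85.4, 66.9 and 86.6, and of 52.9, 63.1 and 52.8.

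The exonic members with most exon bases, after Zfp804a, lay mainly on last exons. They were picked by the number of exon bases covered, which favours long exons. The share on last exons was not counted over all exonic members or over other regions. The list therefore cannot show whether control-only regions lean towards last exons. The region on exon 24, the last, of Ide, which encodes the insulin-degrading enzyme, covered 1542 exon bases with scores of 94.1, 85.0 and 56.5. That on exon 5, the last, of Bhlhe41, a circadian repressor, covered 1126 with scores of 50.1, 75.8 and 65.6. Last exons were also the site at Parp3 (783 bases), Twsg1 (639), Tmem70 (626), Gm10804 (623) and Ptk2 (596), which encodes focal adhesion kinase. Zfand4 (1143 bases, exon 4 of 7) and Zfr (484 bases, exons 7 and 8 of 20) were hit inside the gene.

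The 20 promoter members touched the start windows of 21 genes. Those at Adcy6 and Rps24 crossed the start itself. Upstream lay the regions at Tmem136, Dcps, Ctsf (a cathepsin), C77080, Pml, Csf1 (the growth factor of microglia), Wnt9b, Abcb4, Gls2 (a glutaminase), Gm5129 and Olfr279, from 30 to 856 bases before the start at their near edge. Downstream lay those at Wdr19, Zfp619, Gbp3, Ndufa4, Pcolce2, Dnajb6, Dnajc13 and Fam208a, from 365 to 950 bases after the start. The Gls2 region scored 57.2, 108 and 71.2 and was 23182 bp from a stress peak.

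Whether host genes also had more peaks elsewhere in control was measured on the part of each gene outside all control-only and stress-only regions, which the rule did not use. The percent of the gene under peaks was divided by the same percent over all genes of at least 10 kb in that library, so that 1 is the library average. Of 123 hosts that could be tested, every control library was above every stress library in 9 (7.32%), against 371 of 6608 genes (5.61%). Every control library was below every stress library in 6 (4.88%), against 359 of 6608 (5.43%). Both shares were near the background with all peaks. At equal numbers of peaks, 13 of 107 hosts (12.1%) had every control library higher, against 321 of 5154 genes (6.23%), and 9 (8.41%) had every control library lower, against 331 of 5154 (6.42%). The smallest p that 3 against 3 libraries allow is 0.1 (two-sided exact permutation test), and the smallest adjusted p (Benjamini-Hochberg over 6608 genes) was 0.905.

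Saal1 was among these 9 by construction, since it entered the test through the control libraries alone and its values are a description. Outside its region (chr7:53961411-53962587, mm9, over exon 3, scores 115, 71.8 and 80.0) its relative coverage was 3.13, 4.89 and 3.62 in control and 0, 0 and 0 in stress, and no stress list held a peak in the gene. The extra control peaks were at 2 places, the first listed in controls 1 and 2 (scores 53.7 and 53.5) and the second in controls 2 and 3 (60.6 and 63.1). Srp72, a subunit of the signal recognition particle, was at 4.23, 1.53 and 3.02 in control and 0, 0 and 1.26 in stress. That rested on 1 peak in each control library and 1 in stress 3. The larger Agap1 was at 2.37, 2.41 and 1.56 in control and 0.685, 1.07 and 1.49 in stress, from 6, 11 and 5 against 2, 4 and 7 peaks. The other 6 were Ctif, Negr1, Plcb1, Slc9a9, Tbc1d12 and Tbck.

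Adcy5 went the other way. Its relative coverage outside the control-only region was 0.437, 1.14 and 0 in control and 3.26, 1.90 and 2.82 in stress, and the groups did not overlap. Hs2st1 was at 2.55, 3.26 and 1.88 in control and 5.29, 3.26 and 3.46 in stress, where control 2 and stress 2 were almost equal. Cdh23, Csmd2, Phlpp1 and Ubac2 were the other 4.

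RNA of the host genes differed little between the tables. Each group has 1 table, so there is no replicate check and no test, and a gene was counted when log2((stress + 1)/(control + 1)) was at least 0.32 above or below 0. Genes under a mean of 1 FPKM were left aside. Of 127 hosts kept, 8 (6.30%) were higher in the stress table, against 854 of 11071 genes (7.71%), and 2 (1.57%) were lower, against 390 of 11071 (3.52%). The median log2 difference was 0.11 for hosts and 0.08 for all genes. In bulk tissue, fewer cells of a type and less RNA per cell cannot be told apart.

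Uck2, which encodes a uridine-cytidine kinase, had the largest difference of the 8 higher hosts, at 2.62 FPKM in control and 5.05 in stress (log2 0.74). Klf9 was at 45.7 and 61.8 FPKM (log2 0.43). Mkl1, a coactivator that follows the state of actin, was at 5.05 and 7.16 (log2 0.43). 2610008E11Rik was at 3.78 and 5.33, Sh3rf3 at 3.07 and 4.38, and Plekhg1 at 4.78 and 6.59. Lrch1 and Pcca were the other 2. On the lower side, Pcolce2 was at 1.75 and 0.920 FPKM (log2 -0.52). Dnajb6, a chaperone gene, was at 37.8 FPKM in control and listed at 0 in stress, which can be a failed estimate, so no fold is given. Its neighbour Gm5129, whose start is beside the same region, was also listed at 0 in stress.

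The rest of the 5 lowest differences were smaller than 0.32. Cog5 was at 4.69 and 3.86 FPKM (log2 -0.23), Rasa2, a RAS inhibitor, at 3.38 and 2.91, and Tmem70 at 9.36 and 8.28. Of genes that are not hosts and have a region upstream of the start, Gls2 was at 2.11 and 1.17 FPKM (log2 -0.52) and Ctsf at 5.11 and 6.84 (log2 0.36). Rps24, at 27.5 and 31.0 FPKM, has many processed copies in the genome, so its level is uncertain.

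**Figure D5:**
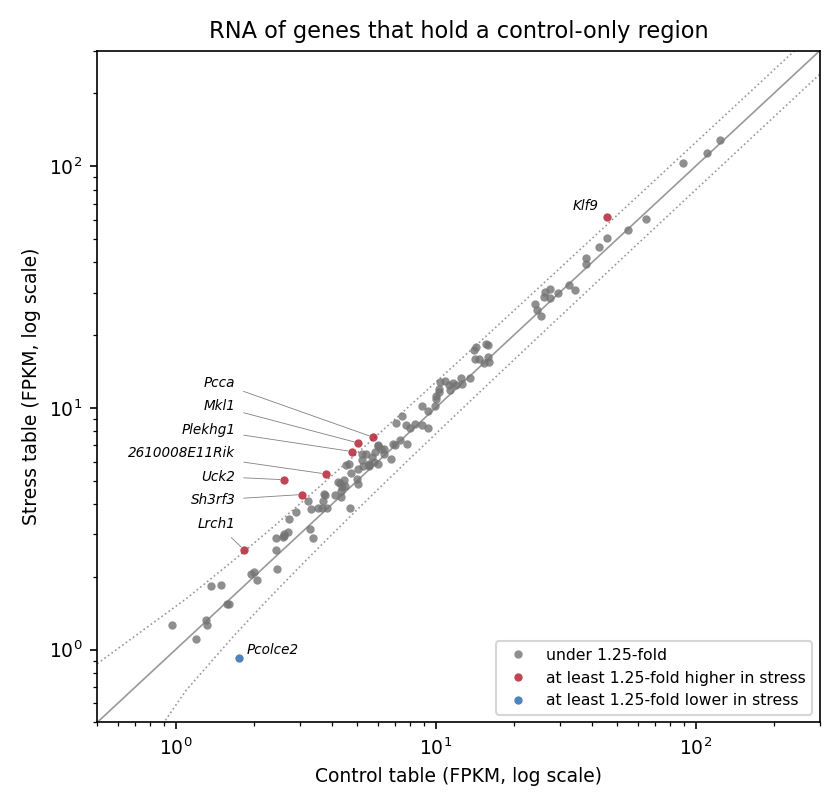
Each point is a host gene that averages 1 FPKM or more, at its level in the control table (horizontal axis, FPKM, log scale) and the stress table (vertical axis, FPKM, log scale). The solid line marks equal levels and the dotted lines a log2 difference of 0.32 after adding 1 FPKM. Of 127 genes, 8 are above the band and Pcolce2 is below it, and Dnajb6, listed at 0 in stress, is not drawn.

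The 6 lists held 15177 to 31636 peaks over 16.6 to 38.1 Mb, and the stress lists, with 15177, 27784 and 31636 peaks, differed more in length than the control lists. All defining markers of neurons, dentate granule cells, CA1, CA3 and glia were above 0.1 FPKM in both tables. Of neighbouring tissue, the 3 choroid plexus markers summed to 224 FPKM in control and 61.9 in stress, and the 6 markers of thalamus, which include the hosts Tcf7l2 and Plekhg1, summed to 24.7 and 31.3. Their part in the RNA and 5hmC values of the hosts was not tested.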

How the data were processed

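The 5hmC peak lists are the authors' own, 1 per library, on build mm9, and each peak carries a score deposited with no stated unit (lowest 50), used here only to rank peaks within a list. Per the submitters' processing notes, the aligner was Bowtie 0.12.9. The peak names are of the MACS type, and its version and the use of an input library are not given in the sources used here. RNA levels are FPKM computed by the authors with TopHat 1.0.12, Cufflinks 2.1.1 and Cuffdiff 2.1.1, per the submitters' processing notes. Each group is 1 table of 33262 transcripts (23953 genes), whose isoforms were summed here. Fewer reads behind a list give fewer peaks, so equal numbers of peaks were tried as an alternative. Read counts per region are not used here.

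Peaks on chromosomes 1 to 19 were merged in Python 3.11 (numpy, scipy), and annotated with the transcript and exon rows of the control RNA table. Genes of at least 10 kb with peaks in at least 3 libraries outside the regions entered the exact permutation test over the 20 assignments of 6 libraries. The RNA comparison used a pseudocount of 1 FPKM. Both steps were tested on simulated data. The regions, gene lists and tests were chosen with earlier results of these data known. Named genes were hosts with 2 regions, hosts of the 10 highest mean score ranks, genes with a region within 1 kb of a start, the 10 hosts with most exon bases, hosts in 1 of 23 gene lists (of which 1 list is not reported here), and the 5 highest and 5 lowest RNA differences. Hosts whose groups separated in coverage were named after their values were seen, as were Optn, Prnp, Lrch1 and Pcca. Replicate libraries are pools of mice, except for 1 made from a single mouse, which is a control if each mouse was used once. The p-values measure the spread between these libraries.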

Additional observations from a re-analysis of the deposited data

How the results depend on the processing

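The number of control-only regions changed with how the lists were trimmed. At equal numbers of peaks there were 308 control-only and 531 stress-only regions, and at equal covered length 367 and 389, against 276 and 847 with all peaks. The 2 sets were thus near in number at equal covered length, but not at equal numbers of peaks or with the higher-scoring 50% (146 and 440). For control-only regions the other settings moved the count as follows. It was 146 with the higher-scoring 50% of each list, and leaving out 1 library in turn gave 364 to 1175, since a pattern over 5 lists is easier to meet: 1175, 881 and 1174 without control 1, 2 and 3, and 364, 480 and 548 without stress 1, 2 and 3. Of the 276, 155 were kept at equal numbers of peaks, 157 at equal covered length, 259 when at least 50% of a region had to be covered, and 51 under all 5 alternatives for choosing them. By the class of the centre, 3.99% were at promoters, 4.35% on exons and 50.0% in introns. At equal numbers of peaks 33.4% were intergenic and 19.2% had a stress peak within 5 kb.

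For coverage of the 123 hosts outside the regions, the number with control higher was 2 without division by the library average (1.44% of all genes tested), 17 with the replicate block (10.6% of all genes), 13 of 107 hosts at equal numbers of peaks (6.23%) and 13 to 19 when 1 library was left out (8.17% to 12.8%). The number with control lower was 15 with the replicate block (10.8%) and 8 to 16 when 1 library was left out (8.85% to 11.3%). Without 1 library, or within blocks, fewer comparisons have to separate. Deviations of same-numbered libraries had r = 0.0062, 0.0072 and -0.0036 for numbers 1, 2 and 3. Pairs with unlike numbers lay between -0.029 and 0.034. Values this small cannot show whether same-numbered libraries share more than the number in their labels.

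For RNA, the number of hosts higher in stress was 16 with a pseudocount of 0.1 (13.1% of all genes), 4 once all values were centred on their median (3.90%), and 16 with the most abundant isoform alone (11.2%), where 9 were lower (6.16%). The remaining alternatives moved shares by less than their interval and counts by at most 1.5 times. The unknown read depth behind each list limits what the absence of a peak shows.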
